A study of Homo sapiens with 9 samples.

Results

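The kynurenine pathway genes are 10 genes of tryptophan breakdown and its receptor, chosen by name because the kynureninase gene KYNU was lower in both PCIF1 knockout clones: TDO2, IDO1, AFMID, KMO, KYNU, HAAO, QPRT, KYAT1, KYAT3 and AHR. All 10 were found among the 58336 genes listed. Nascent transcription was measured by precision run-on sequencing (PRO-seq), which maps engaged RNA polymerases through a labelled nucleotide that they add to their RNA, in MEL624, a human melanoma cell line. The groups were PCIF1 KO1 and PCIF1 KO2, which are clones without PCIF1, and control cells, which were wild type and carried a random guide RNA. Each group had 3 biological replicates. Each knockout line is a single clone, so a difference of one clone from control cannot be told apart from a difference between clones. PCIF1 methylates the adenosine next to the cap of mRNA. The values analysed were 1 mean per group, already averaged over the replicates by the authors. No value here therefore carries a standard deviation, no test between groups could be made, and "higher" and "lower" below describe these means.

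Most dietary tryptophan that is not used for protein is broken down through kynurenine. TDO2, mainly a liver enzyme, and IDO1, an enzyme induced by interferon gamma in immune and tumour cells, open the tryptophan ring, and the formamidase AFMID releases kynurenine. From there the aminotransferases KYAT1 and KYAT3 make kynurenic acid, while KMO, KYNU, HAAO and QPRT lead through hydroxykynurenine, hydroxyanthranilic acid and quinolinic acid to NAD. KYNU cleaves alanine from kynurenine and from hydroxykynurenine. Kynurenine and kynurenic acid are ligands of AHR, the aryl hydrocarbon receptor, a transcription factor.

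The promoters of 3 members are shown because they are the genes with the largest difference above the floor (KYNU), with lower means in both clones below that floor (KMO) and with the highest level (AHR). Each sequence runs 5′ to 3′ on the strand of the gene from 200 bases before the RefSeq start to 30 bases from the start onward (RefSeq, GRCh38.p14), and capitals mark the start base and every match to a motif named below.
KYNU, chr2:142877464-142877693, plus strand: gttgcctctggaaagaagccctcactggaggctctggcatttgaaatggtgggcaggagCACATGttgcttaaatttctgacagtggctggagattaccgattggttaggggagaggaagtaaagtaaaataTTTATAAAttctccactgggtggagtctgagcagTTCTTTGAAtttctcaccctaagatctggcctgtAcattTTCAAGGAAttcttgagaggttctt
KMO, chr1:241532178-241532407, plus strand: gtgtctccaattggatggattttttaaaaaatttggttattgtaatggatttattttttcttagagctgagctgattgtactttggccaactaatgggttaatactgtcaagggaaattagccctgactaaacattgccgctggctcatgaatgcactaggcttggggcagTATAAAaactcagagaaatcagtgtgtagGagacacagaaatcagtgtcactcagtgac
AHR, chr7:17298452-17298681, plus strand: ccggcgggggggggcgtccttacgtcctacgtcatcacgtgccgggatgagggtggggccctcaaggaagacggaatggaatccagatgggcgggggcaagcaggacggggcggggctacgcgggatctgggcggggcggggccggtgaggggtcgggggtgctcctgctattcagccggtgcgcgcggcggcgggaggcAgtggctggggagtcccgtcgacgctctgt
The annotated start base was A for KYNU and AHR and G for KMO, and 44.4% of 35116 promoter entries of all genes start with A. Promoter entries of 9 of the 10 members were used (12 entries), and IDO1 was not analysed here. Of the other entries, TDO2 and KYAT3 start with A, AFMID with G and HAAO with C, whereas the 2 entries of QPRT (A and G) and the 3 of KYAT1 (A, C and G) differ among themselves. These are annotated starts, not starts measured in these cells.

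The same window was searched on both strands for 5 motifs. The KYNU window holds the letters of an interferon gamma activated site, TTCNNNGAA, at 2 places, from -34 to -26 and from 6 to 14 counted from the start base as 1. This motif was in 5.83% of all windows of this length, and 0.305% held it at least 2 times. The KYNU window also holds CATGTG, an E-box form read by MITF, on the minus strand from -141 to -136 (8.83% of windows). Other E-box forms, such as the CACGTG in the AHR window, were not among the 5 motifs. TATAAA is in the KYNU window on both strands, in overlapping positions between -68 and -61. The KMO window holds TATAAA from -29 to -24, and 9.12% of windows hold that motif somewhere. The AHR window holds none of the 5 motifs, which include the AHR core GCGTG (31.0% of windows) and the AP-1 motif TGANTCA (6.16%). Among the windows not shown, AFMID has GCGTG on the minus strand from -15 to -11 and TATAAA from -31 to -26. A KYAT1 entry also holds TTCNNNGAA, from -122 to -114, with TGANTCA from 8 to 14, and a QPRT entry also holds CATGTG, on the minus strand from -132 to -127. A match shows letters in a window and no binding.

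Levels are given as mean normalized counts per gene, the deposited signal per kb multiplied by gene length in kb, and levels of different genes are compared per kb. In each group 17017 to 17129 genes reached 10 mean counts. Ratios were taken after adding 1 count, and the comparison was limited to genes that averaged 10 counts or more across the groups, 17149 in all and 6 of the 10 members. Among short genes the lowest values above 0 formed a step of 0.250 to 0.345 in PCIF1 KO1, 0.327 to 0.355 in PCIF1 KO2 and 0.339 to 0.386 in control. Such a step was taken to be what 1 read in 1 of the 3 libraries is worth. This is an assumption that the labels do not state, and read numbers below are estimated from it. Intervals for ratios are exact binomial 95% intervals on those estimated reads. They use the median of each step and cover counting error only, not the width of the step or the spread between replicates. PCIF1 itself had 269.6 mean counts in PCIF1 KO1 and 239.3 in PCIF1 KO2, against 239.5 in control, values that do not check the labels, because a gene can be disrupted and still be transcribed.

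The melanocyte identity of the cells was only partly visible. Of 8 melanocyte markers, MITF had 142.0 and 259.2 mean counts in PCIF1 KO1 and PCIF1 KO2, against 168.5 in control, and PMEL had 21.3 and 23.8, against 48.4. The other 6 markers were between 0 and 6.81 mean counts, with TYR at 0 in every group. Most markers of cells known for this pathway were low. The 8 hepatocyte markers summed to 3.40 mean counts in PCIF1 KO1 and 2.67 in PCIF1 KO2, against 7.81 in control, with 2 of them at 0 throughout, ALB among these. The 8 macrophage and dendritic cell markers summed to 65.7 and 54.0, against 51.8 in control, most of it from CSF1R and CD68. CSF1R had 39.2 and 29.1, against 29.9 in control, and CD68 had 17.7 and 16.7, against 16.1. The other 6 were below the floor, as were 6 of the melanocyte markers, and ITGAM, AIF1 and TYROBP were at 0 throughout. The macrophage and melanocyte lists thus did not differ in how many markers passed the floor. In such bulk samples of a cell line, fewer transcribing cells and less transcription per cell cannot be told apart.

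Of the ring-opening enzymes, TDO2 had a low level above the floor and IDO1 had about 1 read or none. AFMID, which acts on their product, had a higher level in all groups. TDO2 (ENSG00000151790; chromosome 4, 155854738 to 155920406) had 22.4 mean counts in PCIF1 KO1 and 19.7 in PCIF1 KO2, against 19.4 in control. Its log2 ratios were 0.19 and 0.02, and the counting intervals of the ratio, 0.791 to 1.64 and 0.677 to 1.48, include 1. IDO1 (ENSG00000131203) was at 0.293 mean counts in PCIF1 KO1, about 1 read, and was listed at 0 in PCIF1 KO2 and in control. AFMID (ENSG00000183077; chromosome 17, 78187358 to 78207702) had 272.8 mean counts in PCIF1 KO1 and 273.2 in PCIF1 KO2, against 230.4 in control. Both clones were thus above control by a like amount, with log2 ratios of 0.24 and 0.25. The counting intervals of the AFMID ratio, 1.07 to 1.31 and 1.07 to 1.32, lie above 1. The differences are below 1.5-fold, as were those of 88.1% of compared genes in PCIF1 KO1 and 83.0% in PCIF1 KO2.

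**Figure D1:**
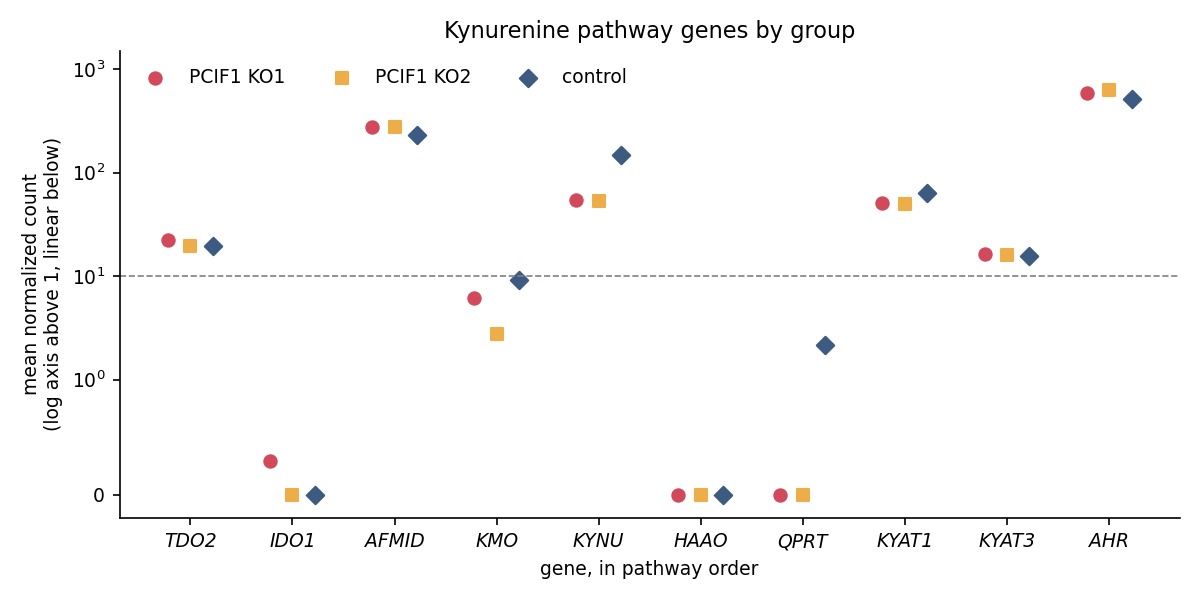
Mean normalized count (y axis, logarithmic above 1 and linear below) of the 10 genes in pathway order (x axis), with 1 point per group and no error bars because each point is the authors' group mean. KYNU shows the widest gap among the genes above the dashed line at 10 counts, with 53.9 and 53.0 counts in PCIF1 KO1 and PCIF1 KO2 and 147.1 in control.

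KYNU was the member with the largest difference among those compared. KYNU (ENSG00000115919; chromosome 2, 142877657 to 143055833, plus strand) had 53.9 mean counts in PCIF1 KO1 and 53.0 in PCIF1 KO2, against 147.1 in control. The log2 ratios to control were -1.43 and -1.46, or 2.70-fold and 2.74-fold lower. These values correspond to about 189 reads in PCIF1 KO1 (between 156 and 216) and 157 in PCIF1 KO2 (149 to 162), against 398 in control (381 to 434). The counting intervals of the ratio were 0.306 to 0.437 in PCIF1 KO1 and 0.298 to 0.435 in PCIF1 KO2. Among the 17149 compared genes KYNU was 107th from the lowest ratio in each clone. The genes were chosen for this difference, so it is a description and is not counted as a finding. Between the clones, which shares no control value, the log2 ratio of PCIF1 KO2 to PCIF1 KO1 was -0.02, with a counting interval for the ratio of 0.791 to 1.22.

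The enzymes around KYNU on the way to NAD were near or at the limit of detection. KMO (ENSG00000117009; chromosome 1, 241532134 to 241595642), the hydroxylase that supplies the second substrate of KYNU, had 6.18 mean counts in PCIF1 KO1 and 2.74 in PCIF1 KO2, against 9.16 in control. It stayed below the floor of 10, with about 22 and 8 reads in the clones and 25 in control. The counting interval of the ratio to control was 0.365 to 1.25 in PCIF1 KO1 and 0.114 to 0.669 in PCIF1 KO2. Between the clones, PCIF1 KO2 over PCIF1 KO1, the interval was 0.166 to 1.005. Of the merged exon bases of KMO, 28.4% overlap exons of OPN3 on the opposite strand. OPN3, an opsin gene, had 243.9 and 268.4 mean counts, against 187.2 in control, so it was higher where KMO was lower. The strand setting of the counting is not given in the sources used here, and the part of OPN3 reads in the KMO values was not tested. HAAO (ENSG00000162882; chromosome 2, 42767089 to 42792593), the dioxygenase that makes the precursor of quinolinic acid, was listed at 0 in all 3 groups. QPRT (ENSG00000103485; chromosome 16, 29663279 to 29698699), which turns quinolinic acid into a precursor of NAD, was listed at 0 in both clones and at 2.19 mean counts in control, about 6 reads.

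Of the aminotransferases that make kynurenic acid, KYAT1 and KYAT3 are members. KYAT1 (ENSG00000171097; chromosome 9, 128832942 to 128882494) had 50.8 mean counts in PCIF1 KO1 and 49.6 in PCIF1 KO2, against 63.4 in control. Both clones were below control, with log2 ratios of -0.31 and -0.35 and counting intervals of the ratio of 0.644 to 0.990 and 0.622 to 0.979. LRRC8A, a chloride channel subunit gene that starts inside the KYAT1 span on the opposite strand and shares no exon base with it, had log2 ratios of -0.29 and -0.38. A further annotated gene on the KYAT1 strand overlaps 57.3% of its exon bases. That gene is not among the genes listed, so it has no value to set beside KYAT1. KYAT3 (ENSG00000137944; chromosome 1, 88935773 to 88992953) had 16.3 mean counts in PCIF1 KO1 and 16.0 in PCIF1 KO2, against 15.5 in control. Its log2 ratios were 0.06 and 0.04. RBMXL1, on the same strand, overlaps 16.3% of the KYAT3 exon bases and had 89.6 and 79.0 mean counts, against 75.9 in control, so the KYAT3 values are uncertain. AADAT and GOT2, aminotransferases of the same step that are not members, had 106.1 and 292.4 mean counts in PCIF1 KO1 and 127.3 and 318.3 in PCIF1 KO2, against 99.4 and 268.7 in control.

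AHR was the most strongly transcribed of the genes. AHR (ENSG00000106546; chromosome 7, 16916359 to 17346152) had 580.7 mean counts in PCIF1 KO1 and 622.6 in PCIF1 KO2, against 513.4 in control. Its log2 ratios were 0.18 and 0.28, with counting intervals of the ratio of 1.06 to 1.21 and 1.13 to 1.30. The 20 compared genes nearest to AHR, 10 on each side, had median log2 ratios of 0.30 and 0.33, so AHR was not above its surroundings. An antisense noncoding gene that overlaps 6.11% of the AHR exon bases had 55.0 and 58.4 mean counts, against 40.8 in control. On the AHR strand, the protein-coding gene ENSG00000283321 overlaps 29.5% of the AHR exon bases and was listed at 0 in every group. How reads in the shared bases were assigned was not tested, so the AHR level carries this limit.

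Per kb of gene length, the order of the genes was the same in all groups at its top and differed at KYNU. AHR had 71.9 and 77.0 in PCIF1 KO1 and PCIF1 KO2 and 63.5 in control, AFMID had 67.4, 67.5 and 56.9, and KYAT1 had 14.0, 13.7 and 17.5 normalized counts per kb. In control KYNU followed these at 8.36 per kb, above KYAT3 at 6.74 and TDO2 at 3.69. In the clones KYNU stood at 3.06 per kb in PCIF1 KO1 and 3.01 in PCIF1 KO2, below KYAT3 at 7.05 and 6.95 and TDO2 at 4.25 and 3.74. Whether neighbours in this order differ beyond the spread between replicates cannot be said from group means. Among all compared genes the KYNU level per kb stood at percentile 3.39 in PCIF1 KO1 and 3.29 in PCIF1 KO2, against 14.4 in control, and that of AHR at 81.3 in PCIF1 KO2, against 77.2 in control. The lengths are those of merged exons, 17600 bases for KYNU or 9.88% of its span, so reads in introns may not enter these levels.

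**Figure D2:**
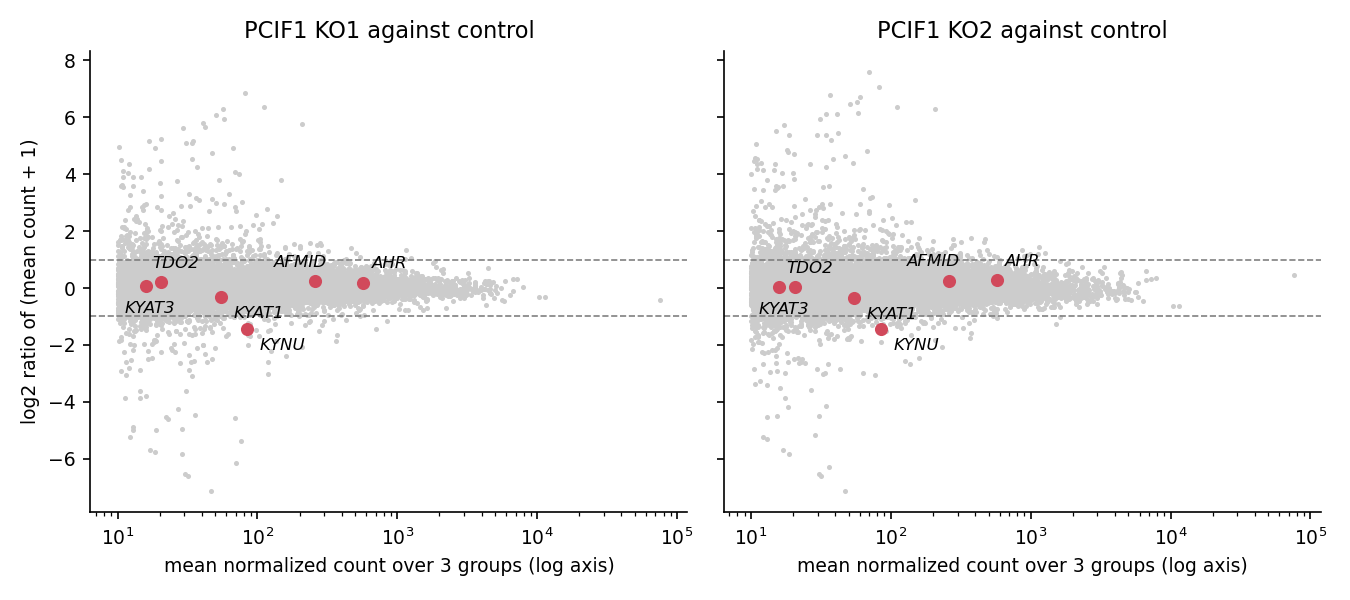
Log2 ratio to control (y axis) against mean normalized count over the 3 groups (x axis, logarithmic) for 17149 compared genes in grey and 6 pathway genes in red, with PCIF1 KO1 at left, PCIF1 KO2 at right and dashed lines at a 2-fold difference. KYNU lies below the lower line in both panels, at -1.43 and -1.46, and the other 5 lie between -0.35 and 0.28.

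Counted together, 1 of the 6 compared genes, KYNU, was at least 2-fold lower in PCIF1 KO1, where 3.59% of all compared genes were at least 2-fold off and 1.32% lower. The same count held in PCIF1 KO2, with 5.23% of all compared genes off and 1.9% lower. KYNU chose the set, so nothing is read from these counts. The other 5 genes had log2 ratios from -0.31 to 0.24 in PCIF1 KO1 (median 0.18) and from -0.35 to 0.28 in PCIF1 KO2 (median 0.04), against a median over all compared genes of -0.00 in each clone. In PCIF1 KO2 against PCIF1 KO1, 0 of 6 were at least 2-fold off, where 1.98% of all compared genes were. The 6 log2 ratios between the clones ran from -0.18 for TDO2 to 0.10 for AHR. In that comparison the central 95% of all genes ran from -1.01 to 1.05 at 10 to 50 counts (TDO2 and KYAT3), from -0.50 to 0.63 at 50 to 200 (KYNU and KYAT1) and from -0.35 to 0.53 at 200 to 1000 (AFMID and AHR).

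The difference at KYNU was not shared by the compared genes on either side of it. The nearest compared genes are LRP1B, a receptor gene of the LDL receptor family 746.6 kb upstream, and GTDC1, a glycosyltransferase-like gene 882.2 kb downstream, gaps between gene ends. LRP1B had 31.7 and 27.9 mean counts in PCIF1 KO1 and PCIF1 KO2, against 22.3 in control. GTDC1 had 45.7 and 45.2, against 41.6 in control. Both flanking genes were thus slightly above control. The 20 nearest compared genes had median log2 ratios of 0.15 in PCIF1 KO1 and 0.10 in PCIF1 KO2, 17 and 14 of them were above control, and 0 were at least 2-fold lower in either clone. The single neighbour at least 2-fold off was TEX41, a noncoding RNA gene, with 82.8 and 62.5 mean counts, against 29.1 in control. The medians around the other members lay between -0.10 and 0.30 in PCIF1 KO1 and between -0.20 and 0.33 in PCIF1 KO2.

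**Figure D3:**
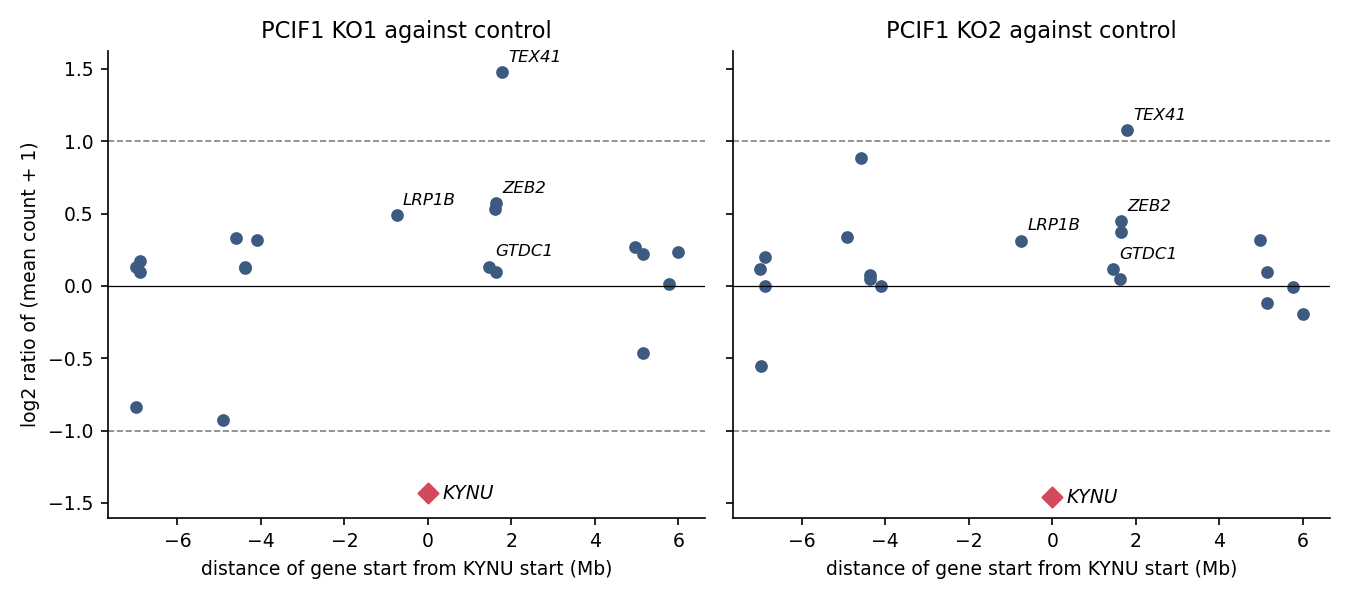
Log2 ratio to control (y axis) of KYNU (red diamond) and its 20 nearest compared genes (blue) by distance of their starts from the KYNU start in Mb (x axis), with PCIF1 KO1 at left and PCIF1 KO2 at right. KYNU, at -1.43 and -1.46, is the single point below the lower dashed line of a 2-fold difference, and TEX41, at 1.48 and 1.08, is the single point above the upper one.

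Genes with the pattern most like that of KYNU were sought among 11231 other genes with a symbol and at least 50 mean counts, by the Euclidean distance of the pair of log2 ratios over the 3 group means. The 5 nearest were BOLA1 (distance 0.123), AREG (0.201), ELP2 (0.259), CHRM3 (0.274) and AP5S1 (0.277). AREG, which encodes the EGF receptor ligand amphiregulin, had 59.4 mean counts in PCIF1 KO1 and 69.0 in PCIF1 KO2, against 166.5 in control. AP5S1, a subunit gene of an adaptor protein complex, had 143.8 and 152.6, against 355.3 in control. The 20 genes nearest to AP5S1 had medians of -0.63 and -0.80, whereas those around AREG had medians of 0.03 and 0.09. BOLA1, with 195.4 and 181.4 mean counts against 487.7 in control, had surroundings at -0.25 and -0.31. The ratios of a gene in both clones share its control mean.

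Other genes of tryptophan use were described by lists, and each count of genes at least 2-fold off is to be read against the 3.59% of all compared genes in PCIF1 KO1 and 5.23% in PCIF1 KO2. For lists of this size, 0 is near that background and is no result about the genes. Of 7 tryptophan transport genes, 4 were compared, with medians of 0.08 in each clone and 0 genes at least 2-fold off. SLC16A10, a transporter of aromatic amino acids, had 66.5 and 71.9 mean counts in PCIF1 KO1 and PCIF1 KO2, against 45.3 in control, and SLC3A2, the heavy chain partner of SLC7A5, had 2030 and 2196, against 1827. SLC7A5 itself, named outside the rule, was below control in both clones, with 515.9 and 529.2, against 601.4. Of 9 other tryptophan and kynurenine enzymes, 6 were compared, with medians of 0.12 and 0.33 and 0 genes at least 2-fold off. WARS2, the mitochondrial tryptophanyl-tRNA synthetase gene, had 263.9 and 267.8, against 200.4 in control, and GCDH, the glutaryl-CoA dehydrogenase gene, had 145.3 and 179.5, against 124.6. The second ring-opening gene of the IDO family, IDO2, was listed at 0 in all groups. IL4I1, an amino acid oxidase gene below the floor, had 9.59 mean counts in PCIF1 KO1 and 2.05 in PCIF1 KO2, against 4.05 in control.

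Of 9 other genes of NAD synthesis and nicotinamide use, 7 were compared, with 0 genes at least 2-fold off (background 3.59% and 5.23%). Their medians were -0.04 in PCIF1 KO1 and -0.19 in PCIF1 KO2. The list is not limited to routes apart from the kynurenine pathway. NMNAT1, the nuclear enzyme that completes NAD, had 175.3 and 163.5 mean counts, against 115.3 in control, and NNMT, which methylates nicotinamide, had 105.4 and 115.3, against 132.1. NAMPT, the salvage enzyme, had 577.9 and 551.9, against 569.9, and was outside the rule for named genes. Pyridoxal phosphate is the cofactor of KYNU and of the aminotransferases. PDXK, the kinase that makes it from its vitamin forms, had 354.7 and 338.8 mean counts, against 386.8 in control, and PDXP, the phosphatase that removes its phosphate, had 53.4 and 53.1, against 61.4. In the serotonin and melatonin branch MAOA alone of 7 genes was compared, with log2 ratios of 0.36 and 0.28.

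AHR partners and targets were mixed. Of 14 genes, 10 were compared, with medians of 0.23 in PCIF1 KO1 and -0.08 in PCIF1 KO2. Among them 0 were at least 2-fold off in PCIF1 KO1 and 1 was in PCIF1 KO2, ARNT2, where the background was 3.59% and 5.23% of compared genes. ARNT2, a dimer partner of AHR-type factors, had 67.9 mean counts in PCIF1 KO1 and 26.6 in PCIF1 KO2, against 57.4 in control. It was therefore low in 1 clone alone, with a log2 ratio between the clones of -1.32. For a list of 10 genes nothing is read from a count of 1. ARNT, another partner gene of this list named outside the rule, had 79.7 and 58.1, against 67.4 in control. CYP1A1, the classical AHR target, had 18.6 and 11.6, against 23.5 in control, log2 ratios of -0.32 and -0.95. The other compared targets, named outside the rule, lay on both sides of control. AHRR, the AHR repressor gene, had log2 ratios of -0.14 and -0.36, TIPARP had 0.19 and 0.06, and NQO1 had 0.27 and 0.32. The 6 receptor genes for kynurenines, GPR35, CHRNA7 and NMDA receptor subunits, each averaged below 10 mean counts over the groups.

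Of 10 genes of interferon gamma input, which controls IDO1 and KYNU in immune cells, 7 were compared, with medians of 0.08 in PCIF1 KO1 and 0.17 in PCIF1 KO2 and 0 genes at least 2-fold off in either clone (background 3.59% and 5.23%). The genes of this list below the floor, named outside the rule, did not share a direction. IRF8, a transcription factor gene of immune cells, was listed at 0 in both clones and at 6.61 mean counts in control. GBP1 had 10.1 mean counts in PCIF1 KO1 and 7.44 in PCIF1 KO2, against 7.89 in control. GBP2 had 3.08 and 2.07, against 1.00 in control. CIITA, the class II transactivator, had 141.6 mean counts in PCIF1 KO1 and 139.1 in PCIF1 KO2, against 221.5 in control. It was below control in both clones, with log2 ratios of -0.64 and -0.67, while the 10 compared genes on each side had medians of -0.03 and -0.07. IRF1, an interferon-induced transcription factor gene, had 1369 and 1077 mean counts, against 955 in control, log2 ratios of 0.52 and 0.17.

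**Figure D4:**
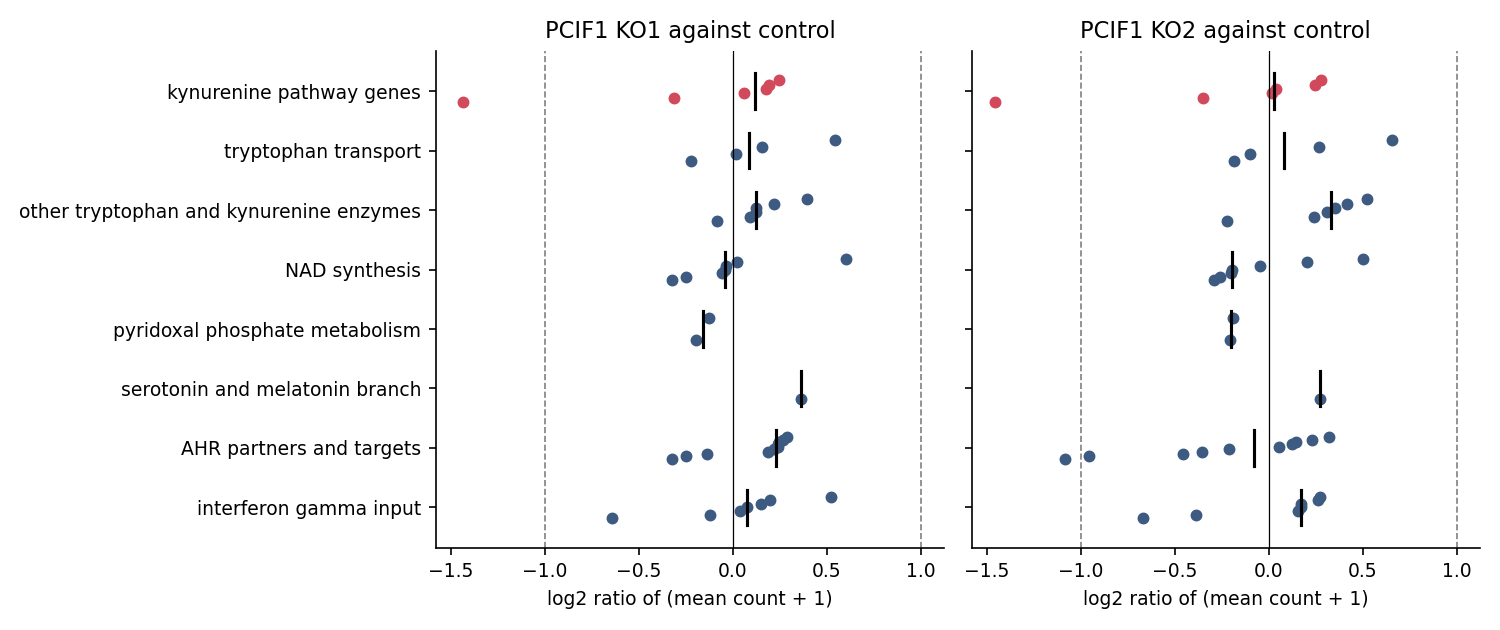
Log2 ratio to control (x axis) of each compared gene (points) in 8 lists (rows), with the list median as a black bar, PCIF1 KO1 at left, PCIF1 KO2 at right and dashed lines at a 2-fold difference. KYNU in the top row, at -1.43 and -1.46, lies past the lower line in both panels, and ARNT2, at -1.08, lies past it in PCIF1 KO2.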

How the data were processed

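PRO-seq was run on 9 libraries, 3 per group. The authors deposited 1 table of signal values, per the file header mean normalized counts per kb of gene length for each group, with replicates already averaged. Tools listed without a role or order in the submitters' processing notes are DESeq2, featureCounts, Bowtie 1.2.2 and cutadapt 1.14, and the listed builds are GRCh38.p12, hg38 and dm3. Not given in the sources used here are the strand setting and whether the spike-in entered the scaling. The header has 6 names and the rows 5 cells; the missing cell was taken to be the gene symbol, since, of 57754 identifiers matched to GENCODE release 44 (582 were not), 83.1% have a value there within 5% of their merged exon length.

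Signal was multiplied by length in kb, 1 was added, and log2 ratios were taken at a floor of 10 mean counts; at least 2-fold is the criterion used. Rounding to 0.01 per kb leaves 0.088 counts at KYNU. The members and lists were chosen with earlier results of these data known, and the promoter motifs after the members' values were seen. The text names all members, per list those at least 2-fold off and the 2 with the largest mean ratio, and the 5 genes most like KYNU. Some further list genes are named outside this rule. Some list genes are not reported here, and their lists were summarised without them. Positions and overlaps are from GENCODE release 44 (GRCh38). Alternatives were other scalings, pseudocounts, floors and values per kb. The software was matplotlib 3.10.9, scipy 1.17.1, pandas 2.3.3 and numpy 2.4.6 under Python 3.11.15.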

Additional observations from a re-analysis of the deposited data

How the results depend on the processing

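The KYNU log2 ratio stayed below -1 under all 7 alternatives, from -1.45 to -1.21 in PCIF1 KO1 and from -1.50 to -1.22 in PCIF1 KO2, smallest in size on the scale per kb with 1 added. The alternatives that change only the count floor cannot alter the ratio of a gene, so they are no check of it. The number of members at least 2-fold off was 1 in each clone under 5 alternatives. With no filter on low counts it was 2 in PCIF1 KO1, KYNU and QPRT, and 3 in PCIF1 KO2, with KMO added, since genes of few reads enter. With the floor of 10 applied per kb it was 0 in each clone, because KYNU falls below that floor and 3 members remain. The KMO log2 ratio in PCIF1 KO2 was -1.44 on counts and -0.80 per kb, where adding 1 weighs more. No rescaling moved the median of all compared genes by over 0.1. No paired analysis was possible because the table holds 1 mean per group, and for the same reason no replicate could be left out and no test of counts run. Low read numbers limit what can be said of KMO, QPRT, IDO1 and HAAO.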
